A study of Mus musculus with 6 samples.

Results

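The genes described here are 41 transcription factors and cofactors of face, tooth and hair patterning, chosen by name from the 26814 gene symbols with counts, and all 41 were found in the table. Most are homeodomain factors of the LIM, Distal-less, Msx, Pitx, Alx, Prrx, Bar and Hox families and the sine oculis-related genes Six2 to Six5. The rest are the paired-domain factors Pax3 and Pax9, T-box and Twist factors, AP-2 and Sox factors, the LIM-only cofactor Lmo4 and the p63 gene Trp63, so the set is wider than homeobox, T-box and bHLH genes. Levels are given as CPM, read counts scaled to the size of each library, and 38 members reached 1 CPM in at least 3 libraries and were tested. The other 3, Dlx6, Barx1 and Pax9, reached 1 CPM in at most 2 libraries and were near absent.

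The counts came from RNA-Seq of top lip tissue from 3 adult female wild type mice (WT) and 3 adult female mice homozygous for the targeted allele Gtf2ird1 tm1Hrd (KO), on a C57BL/6J background, with 1 library per mouse. GTF2IRD1 is a transcription factor encoded in the chromosomal interval that is deleted in Williams-Beuren syndrome. The allele is constitutive, so every cell of the lip carries it, and the tissue is a mixture of epidermis, hair follicles, dermis and muscle. Total counts per library ran from 20164081 to 29491767, and the detection limit of 3 counts was worth 0.0986 to 0.154 CPM, depending on the library (counting error only). Gtf2ird1 itself had 78.2, 70.2 and 70.7 CPM in WT1, WT2 and WT3 and 166, 162 and 144 CPM in KO1, KO2 and KO3, a log2 fold change of 1.11 (standard error, SE, 0.13, adjusted p = 0.0018). The targeted gene thus goes against a loss of its RNA, and counts per gene do not separate reads of a disrupted allele from those of an intact one, so directions are given here for the KO-labelled libraries.

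Homeodomain factors bind short AT-rich sites through a shared DNA-binding fold, and combinations of them give the jaws, teeth and lips their regional identity in the embryo. Dlx, Msx, Prrx and Alx factors act in the neural crest mesenchyme of the face, Pitx factors in oral ectoderm, and Lhx6 and Lhx8 in the jaw and tooth mesenchyme. In adult skin several of the same genes serve the hair follicle, with Lhx2 in its progenitor cells and Hoxc13, Msx2 and Dlx3 in the hair shaft, while Trp63 and the AP-2 genes are active in basal keratinocytes.

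Most members lay lower in the KO-labelled libraries, and a pair of nearly silent genes lay many fold higher. Of the 38 tested members, 5 were lower (Hoxc13, Prrx1, Lmo4, Lhx8 and Dlx2) and 2 were higher (Lmx1a and Six3) by edgeR's quasi-likelihood test, with Benjamini-Hochberg adjustment over all 15009 tested genes and a threshold of 0.05. The 5 lower calls are 13.2% of the tested members, beside 2.09% of all tested genes, and the 2 higher calls are 5.26%, beside 4.38%. The members were chosen with earlier results of these data known. Several, such as Lhx2, Lmx1a and Hoxc13, are in the study's own list of differentially expressed factors. These shares, and those that follow, are thus not independent of the choice of members. In either direction 7 members were called, beside 6.47% of all tested genes. Before adjustment, 21 members were lower and 2 higher at p under 0.05, beside 16% and 13.5% of all tested genes. The log2 fold change was negative for 30 members and positive for 8, with a median of -0.57 beside -0.02 for all tested genes. In 24 members (63.2%) every library labelled KO lay below every WT library, an order found in 18.1% of all tested genes. The reverse order held for 4 members, beside 13.5% of all tested genes, and 10 members overlapped, whereas 31.5% of all tested genes had no overlap in either direction. The exact test of edgeR, which the study used, called 16 members lower and 2 higher, beside 7.15% and 7.76% of all tested genes. DESeq2's Wald test, in which 39 members could be tested, called 13 lower, with Pax9 among them, and 2 higher, beside 5.31% and 8.93%. Pax9 had 216 counts in WT1 and at most 27 in any other library. With limma-voom 5 members were lower and 2 higher, beside 2.21% and 4.08%. The older quasi-likelihood fit of edgeR called 4 lower, without Dlx2, and 2 higher, beside 1.96% and 4.32%. The count of lower calls depended on single libraries. It was 21 without KO3, where 16.2% of all tested genes were lower, 1 (Hoxc13) without WT2, where 0.513% were lower, and 0 without WT1, WT3, KO1 or KO2, where 0.153% to 0.366% were lower, whereas both higher calls were made in all 6 of these fits. Since the tissue was processed whole, fewer cells of a type and less RNA per cell cannot be told apart in any of these values.

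**Figure D1:**
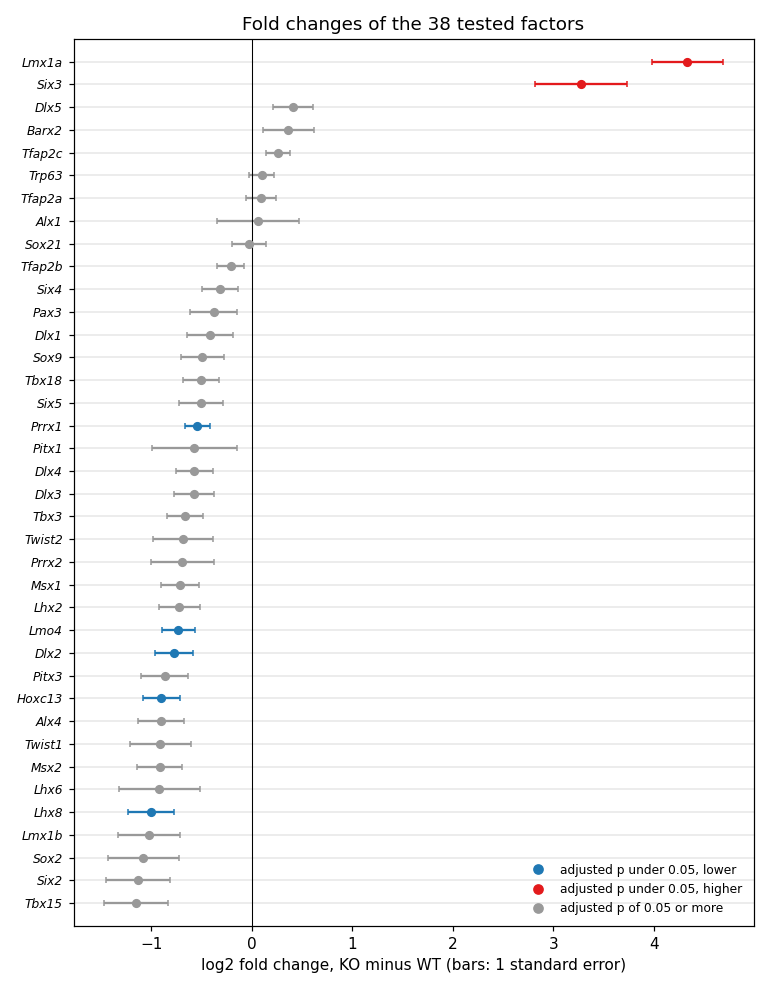
The horizontal axis gives the log2 fold change of each of the 38 tested members, libraries labelled KO minus WT, with bars of 1 standard error, and the members stand in rows. Lmx1a at 4.33 and Six3 at 3.28 stand far to the right, and 30 of the 38 points lie left of 0, down to -1.15 for Tbx15.

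The largest change among the members was that of Lmx1a, a LIM-homeodomain factor of dorsal neural progenitors and midbrain dopamine neurons. Lmx1a had 1.02, 0.893 and 0.675 CPM in WT1, WT2 and WT3 (28, 21 and 15 counts) and 21.8, 20.5 and 10.3 CPM in KO1, KO2 and KO3 (427, 624 and 226 counts). The groups did not come near each other, and KO3 stood lowest of the KO-labelled libraries. The mean rose from 0.861 ± 0.173 CPM to 17.6 ± 6.30 CPM (SD, n = 3), a fold of 20.4, and the log2 fold change was 4.33 (SE 0.35, adjusted p = 0.000255). Per kilobase of exon, Lmx1a moved from rank 38 of the 41 members in WT, at 0.254 CPM per kb, to rank 17 in the KO-labelled libraries, at 5.17 CPM per kb. The gene lies on chromosome 1 (GRCm38, 167689237 to 167848741, plus strand). Its nearest counted neighbour, Rxrg, 49.6 kb away, was not called, with a log2 fold change of -0.54 (adjusted p = 0.354).

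The paralogue Lmx1b, a LIM-homeodomain factor of the dorsal limb and its nails, had lower values in the KO-labelled libraries. It had 2.61, 2.17 and 2.83 CPM in WT1, WT2 and WT3 and 0.972, 1.78 and 0.915 CPM in KO1, KO2 and KO3. The groups did not overlap, but the log2 fold change of -1.02 (SE 0.31) missed the threshold (adjusted p = 0.0813). Sequences before the RefSeq starts of both genes are shown because this pair lay on opposite sides of WT. The RefSeq start of Lmx1a (167689558) differs from the start of the GENCODE gene given above, so its stretch lies inside that gene, in an intron. Both are promoter sequence of GRCm38.p6, 5′ to 3′, for Lmx1a chr1:167689308-167689556 on the plus strand and for Lmx1b chr2:33641099-33641348 on the minus strand, with capitals at CANNTG, the E-box bound by bHLH factors.
Lmx1a: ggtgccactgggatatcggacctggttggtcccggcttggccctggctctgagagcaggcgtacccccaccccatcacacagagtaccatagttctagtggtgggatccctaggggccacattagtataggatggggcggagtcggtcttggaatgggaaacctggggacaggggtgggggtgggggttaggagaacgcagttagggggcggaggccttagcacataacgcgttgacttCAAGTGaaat
Lmx1b: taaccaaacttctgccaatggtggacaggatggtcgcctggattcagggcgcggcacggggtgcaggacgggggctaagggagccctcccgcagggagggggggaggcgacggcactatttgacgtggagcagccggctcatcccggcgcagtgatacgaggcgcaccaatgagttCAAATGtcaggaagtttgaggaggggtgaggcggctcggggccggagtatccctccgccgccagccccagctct

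Six2 and Six3 formed a second such pair. Six3, a homeodomain factor of the forebrain and eye, had 0.145, 0.255 and 0.180 CPM in WT1, WT2 and WT3, which is 4, 6 and 4 counts, and 2.25, 2.37 and 1.05 CPM in KO1, KO2 and KO3, which is 44, 72 and 23 counts. It was close to the limit of detection in WT and above 1 CPM in each library labelled KO. With WT below 1 CPM, it passed the filter of 1 CPM in at least 3 libraries only through the KO-labelled libraries. The mean rose from 0.193 ± 0.0562 to 1.89 ± 0.728 CPM (SD, n = 3), and the log2 fold change was 3.28 (SE 0.46, adjusted p = 0.00511). Even so Six3 stayed low, at rank 35 of the 41 members per kilobase of exon in the KO-labelled libraries. Its opposite-strand gene Six3os1 had 0 counts in every WT library and 4, 2 and 1 counts in KO1, KO2 and KO3 (0.205, 0.0658 and 0.0457 CPM). The values of KO2 and KO3 lie under the detection limit of 3 counts.

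Six2, which maintains progenitors in the kidney and skull base, lies 55.0 kb from Six3 on chromosome 17. It had 2.21, 1.36 and 1.30 CPM in WT1, WT2 and WT3 and 0.716, 0.658 and 0.869 CPM in KO1, KO2 and KO3. The groups did not overlap, and the log2 fold change was -1.13 (SE 0.32, adjusted p = 0.072). The neighbouring genes thus had fold changes of opposite sign. Six2 reached 1 CPM in the WT libraries alone and Six3 in the KO-labelled libraries alone, so each was tested only through its higher group. The lack of overlap in both genes follows from that. Whether the changes of Six2 and Six3 differ was not tested. Six4 and Six5, the broadly expressed members of the family, had log2 fold changes of -0.31 (adjusted p = 0.269) and -0.51 (adjusted p = 0.173), and their groups did not overlap. The sequences before the RefSeq starts of the neighbouring pair are chr17:85620584-85620833 on the plus strand and chr17:85688275-85688504 on the minus strand (GRCm38.p6, RefSeq). None of the motifs searched (spelled out with the promoter counts) was found in either, so no letter is in capitals. The stretch of Six3 ends at the RefSeq start (85620834) and lies inside the longer GENCODE gene (85613608 to 85629302), between its exons.
Six3: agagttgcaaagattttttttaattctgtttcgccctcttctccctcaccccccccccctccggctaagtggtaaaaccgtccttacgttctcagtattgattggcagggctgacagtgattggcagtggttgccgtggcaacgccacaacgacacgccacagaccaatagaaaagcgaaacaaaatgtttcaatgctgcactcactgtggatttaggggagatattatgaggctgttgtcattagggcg
Six2: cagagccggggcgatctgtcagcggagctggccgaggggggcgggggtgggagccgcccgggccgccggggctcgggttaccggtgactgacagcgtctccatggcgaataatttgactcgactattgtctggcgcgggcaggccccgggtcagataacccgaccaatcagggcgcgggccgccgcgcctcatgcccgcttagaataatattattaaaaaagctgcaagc

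**Figure D2:**
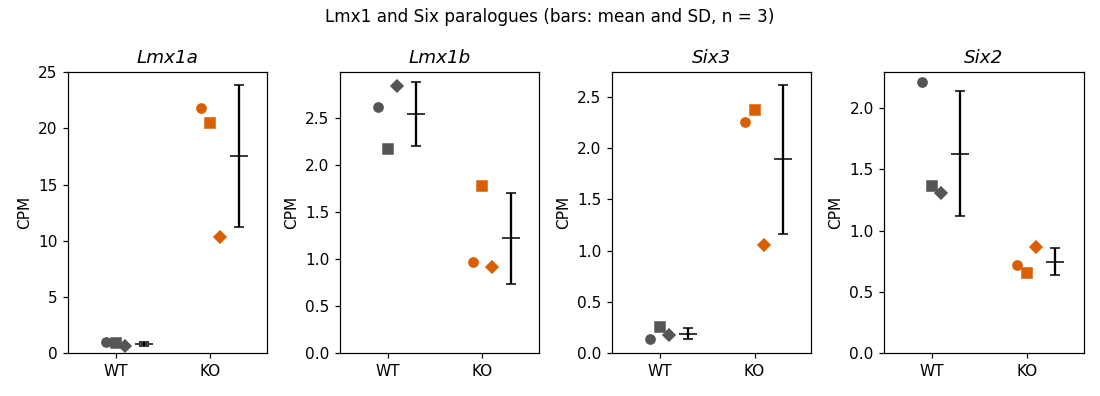
The vertical axes give CPM, from 0, of Lmx1a, Lmx1b, Six3 and Six2 in each library, with the mean and SD of 3 mice per genotype. Lmx1a and Six3 lie higher in each library labelled KO than in any WT library, and Lmx1b and Six2 lie lower.

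Among the other LIM genes, Lhx8 and Lmo4 were lower in the KO-labelled libraries. Lhx8, a factor of palate and tooth mesenchyme, had 4.39, 4.29 and 4.23 CPM in WT1, WT2 and WT3 and 1.54, 2.47 and 2.38 CPM in KO1, KO2 and KO3. The WT values were nearly the same, KO1 was the lowest, and the log2 fold change was -1.01 (SE 0.23, adjusted p = 0.0437), called in 6 of 10 other settings. AI606473, which starts 0.162 kb from Lhx8, stayed under the filter, at 0.726, 1.02 and 0.989 CPM in WT and 0.461, 0.559 and 0.503 CPM in KO1, KO2 and KO3. Lmo4, a LIM-only protein that competes for the LIM cofactor LDB1, had 91.8, 76.7 and 96.8 CPM in WT1, WT2 and WT3 and 45.7, 50.5 and 63.8 CPM in KO1, KO2 and KO3. Its log2 fold change was -0.73 (SE 0.17, adjusted p = 0.0433), called in 8 of 10 other settings. The cofactor gene Ldb1 itself had 180, 168 and 155 CPM in WT and 170, 168 and 145 CPM in the KO-labelled libraries, with a log2 fold change of -0.06 (adjusted p = 0.797).

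Lhx2, a regulator of hair follicle progenitors and of brain and eye development, had 88.4, 65.2 and 80.1 CPM in WT1, WT2 and WT3 and 35.4, 58.8 and 47.5 CPM in KO1, KO2 and KO3. The groups did not overlap, with KO2 close to WT2. Its mean was 77.9 ± 11.8 CPM in WT and 47.2 ± 11.7 CPM in the KO-labelled libraries (SD, n = 3), or 60.6% of WT, and the log2 fold change was -0.72 (SE 0.21). With an adjusted p of 0.0755 it missed the threshold in edgeR's quasi-likelihood test. Over 10 other settings its adjusted p ran from 0.0179 to 0.118, and the exact test and DESeq2's Wald test called it lower. With each library left out in turn the log2 fold change stayed between -0.87 and -0.50, and the adjusted p between 0.0335, without KO3, and 0.237. Lhx6, the partner of Lhx8 in jaw patterning, had 2.47, 2.47 and 2.29 CPM in WT1, WT2 and WT3 and 1.02, 0.658 and 2.19 CPM in KO1, KO2 and KO3. KO3 lay next to the WT range, and the log2 fold change of -0.92 (SE 0.40) did not pass (adjusted p = 0.172), although it was called without KO3 (adjusted p = 0.00458). The sequence upstream of Lhx2 (chr2:38339031-38339280, plus strand, GRCm38.p6, RefSeq) is given because its call changed with the test, and it holds none of the motifs searched.
Lhx2: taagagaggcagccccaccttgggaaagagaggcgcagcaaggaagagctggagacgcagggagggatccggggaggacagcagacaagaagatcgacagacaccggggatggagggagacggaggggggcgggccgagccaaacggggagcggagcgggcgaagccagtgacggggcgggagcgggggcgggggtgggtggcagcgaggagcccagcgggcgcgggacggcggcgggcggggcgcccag

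The Distal-less genes lie in neighbouring pairs, and of the 5 tested 1 was called lower, beside 2.09% of all tested genes. Dlx2, which patterns the jaws together with Dlx1, had 11.4, 9.06 and 10.9 CPM in WT1, WT2 and WT3 and 5.07, 6.61 and 6.58 CPM in KO1, KO2 and KO3. It was called lower, just inside the threshold (log2 fold change -0.77, SE 0.19, adjusted p = 0.0496), and in 3 of 10 other settings. With each library left out in turn, Dlx2, Lhx8, Lmo4 and Prrx1 were each called in 1 of 6 fits, that without KO3. Dlx1, 9.43 kb away on chromosome 2, had 4.43, 5.10 and 4.36 CPM in WT and 4.30, 3.48 and 2.61 CPM in KO1, KO2 and KO3, with a log2 fold change of -0.42 (adjusted p = 0.25). Dlx3, a regulator of the hair shaft and of enamel, was the member with the highest level per kilobase of exon in WT (74.0 CPM per kb). It had 214, 156 and 209 CPM in WT1, WT2 and WT3 and 98.8, 148 and 142 CPM in KO1, KO2 and KO3, so that WT2 and KO2 nearly met (log2 fold change -0.57, adjusted p = 0.105). Dlx4, 15.2 kb from Dlx3, had the same log2 fold change of -0.57 at far lower counts (adjusted p = 0.0918). Dlx5, a factor of the lower jaw and of bone, had a positive value of 0.41 (adjusted p = 0.199) with overlapping groups, from 7.40 to 9.54 CPM in WT and from 8.98 to 12.8 CPM in the KO-labelled libraries. Its neighbour Dlx6, 9.24 kb away, was near absent, with 1 to 5 counts in each library. The sequence upstream of Dlx2 (chr2:71546755-71547004, minus strand, GRCm38.p6, RefSeq) is shown for its 2 copies of the E-box CACGTG, in capitals.
Dlx2: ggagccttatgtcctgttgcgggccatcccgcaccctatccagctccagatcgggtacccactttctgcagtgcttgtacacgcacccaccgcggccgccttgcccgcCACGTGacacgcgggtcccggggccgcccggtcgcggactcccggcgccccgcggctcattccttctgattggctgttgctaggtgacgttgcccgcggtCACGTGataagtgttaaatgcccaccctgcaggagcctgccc

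Hoxc13, the hair shaft regulator whose loss leaves mice hairless, had 75.3, 61.6 and 81.9 CPM in WT1, WT2 and WT3 and 31, 40.0 and 46.0 CPM in KO1, KO2 and KO3. The groups were well apart, and the log2 fold change of -0.90 (SE 0.18) had the lowest adjusted p among the lower members (0.0292). It was the sole lower member called in each of the 10 other settings, with adjusted p from 0.000943 to 0.0404. With each library left out in turn it was called in 2 of 6 fits, without WT2 and without KO3, and the adjusted p reached 0.131. The neighbouring Hoxc12, 7.94 kb away, was near 0, with at most 8 counts in a library, and Calcoco1, on the other side, had a log2 fold change of -0.31 (adjusted p = 0.149). Msx2, which acts with BMP signals in the hair matrix and in the skull, had 46.7, 41.2 and 60.4 CPM in WT1, WT2 and WT3 and 19.3, 26.2 and 33.0 CPM in KO1, KO2 and KO3. With a log2 fold change of -0.92 (SE 0.23, adjusted p = 0.0532) it lay just outside the threshold, and it was called lower in 5 of 10 other settings. Msx1, a tooth and palate factor, had 19.2, 15.3 and 21.3 CPM in WT and 10.6, 9.90 and 13.5 CPM in KO1, KO2 and KO3, with a log2 fold change of -0.71 (adjusted p = 0.0663).

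Prrx1, a marker and regulator of face and limb mesenchyme, had the smallest SE of the 5 lower calls. It had 97.6, 90.0 and 94.9 CPM in WT1, WT2 and WT3 and 59.2, 65.2 and 69.7 CPM in KO1, KO2 and KO3. The log2 fold change was -0.54 (SE 0.12, adjusted p = 0.043), the smallest change of the 7 calls. It was called in 5 of the 10 other settings. Its paralogue Prrx2 had 11, 9.06 and 15.5 CPM in WT and 5.73, 5.49 and 10.8 CPM in KO1, KO2 and KO3, where KO3 lay inside the WT range (log2 fold change -0.69, adjusted p = 0.18). Alx4, a factor of the frontonasal mesenchyme and skull, had 20.7, 20.3 and 25.9 CPM in WT and 8.80, 11.2 and 15.6 CPM in KO1, KO2 and KO3 (log2 fold change -0.91, adjusted p = 0.056). Of the 10 other settings, 4 called Alx4 lower. Alx1, needed for the midface, had 1.02 to 3.02 CPM in WT and 1.45 to 2.29 CPM in the KO-labelled libraries, and its log2 fold change of 0.06 (SE 0.41) turned negative without WT1, WT3 or KO3. The sequence upstream of Prrx1 (chr1:163313711-163313900, minus strand, GRCm38.p6, RefSeq) is shown because it holds TAATTA, the core that homeodomains bind, in capitals.
Prrx1: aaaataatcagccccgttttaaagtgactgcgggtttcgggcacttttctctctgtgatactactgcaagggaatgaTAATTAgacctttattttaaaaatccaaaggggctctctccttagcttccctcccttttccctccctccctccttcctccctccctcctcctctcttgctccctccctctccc

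Pitx3, a lens and midbrain factor, had a log2 fold change of -0.87 (SE 0.24, adjusted p = 0.0683), with 3.78 to 5.08 CPM in WT and 2.15 to 3.16 CPM in the KO-labelled libraries. Its exons overlap those of Elovl3 on the opposite strand, which had 508, 477 and 636 CPM in WT and 300, 341 and 422 CPM in KO1, KO2 and KO3 (log2 fold change -0.61, adjusted p = 0.081). Reads of this pair cannot be told apart if counting ignored the strand, which the sources used here do not state. Exons of Tfap2a, Sox21, Tbx18 and Pax9 also overlap counted genes of the opposite strand, which had at most 2.65 CPM in any library. Those of Dlx1, Dlx4, Dlx6, Six3, Pitx1, Tbx3, Tfap2a and Twist2 overlap opposite-strand genes that were not among the counted gene symbols. Pitx1, a factor of the lower jaw, hindlimb and oral ectoderm, stood at 77.0, 26.1 and 26.7 CPM in WT1, WT2 and WT3 and at 23.4, 37.8 and 26.2 CPM in KO1, KO2 and KO3. Its log2 fold change of -0.57 (SE 0.42, adjusted p = 0.386) rested on WT1 and was 0.14 without that library.

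The T-box genes lay lower in every library labelled KO than in any WT library, but none of the 3 passed the threshold in edgeR's quasi-likelihood test, while all 3 had an unadjusted p under 0.05. Of all tested genes, 18.1% had this order, 2.09% were called lower and 16% were lower at an unadjusted p under 0.05. Tbx15, which acts in dermal cells and sets the border of coat colour, had 138, 137 and 109 CPM in WT1, WT2 and WT3 and 43.9, 37.8 and 91.5 CPM in KO1, KO2 and KO3. KO3 lay near WT3 and far from KO1 and KO2, and the log2 fold change was -1.15 (SE 0.32, adjusted p = 0.0703), or -1.65 without KO3 (adjusted p = 0.000175). Tbx3, a factor of limb and mammary placodes, had a log2 fold change of -0.66 (adjusted p = 0.0673), and Tbx18, a factor of dermal papilla and heart precursors, had -0.50 (adjusted p = 0.114). The exact test and DESeq2 called Tbx15 and Tbx3 lower. Twist1, the bHLH factor of cranial mesenchyme, had 18.0, 15.8 and 22.8 CPM in WT and 6.29, 8.91 and 14.9 CPM in KO1, KO2 and KO3 (log2 fold change -0.91, SE 0.31, adjusted p = 0.102). Twist2, the dermal paralogue, had 9.54, 8.33 and 13.0 CPM in WT and 4.30, 5.85 and 9.05 CPM in KO1, KO2 and KO3 (log2 fold change -0.68, adjusted p = 0.168). In both Twist genes KO3 was the highest of the KO-labelled libraries, and in Twist2 it lay inside the WT range.

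Trp63, the master regulator of stratified epithelium, had 378, 360 and 340 CPM in WT1, WT2 and WT3 and 383, 387 and 383 CPM in KO1, KO2 and KO3. The latter lay slightly above WT, and the log2 fold change was 0.10 (SE 0.12, adjusted p = 0.619). Of the AP-2 genes, which act in neural crest and keratinocytes, Tfap2a had a log2 fold change of 0.09 (adjusted p = 0.71), Tfap2b of -0.21 (adjusted p = 0.315) and Tfap2c of 0.26 (adjusted p = 0.192). Tfap2c was above WT in each library labelled KO, from 113 to 123 CPM against 91.2 to 106 CPM. Sox21, a hair cuticle factor, had 59.1 to 84.1 CPM in WT and 64.4 to 80.2 CPM in the KO-labelled libraries, with a log2 fold change of -0.03 (SE 0.17) whose sign changed with the scaling. Barx2, a factor of muscle and hair follicles, had 78.8, 92.9 and 149 CPM in WT and 119, 124 and 168 CPM in KO1, KO2 and KO3 (log2 fold change 0.36, adjusted p = 0.358).

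Sox9, which maintains hair follicle stem cells and cartilage, had 149, 96.8 and 127 CPM in WT and 68.0, 104 and 93.1 CPM in KO1, KO2 and KO3 (log2 fold change -0.49, adjusted p = 0.166). Sox2, a factor of dermal papilla, Merkel and taste cells, had 4.28, 2.08 and 2.11 CPM in WT and 1.02, 1.38 and 1.6 CPM in KO1, KO2 and KO3. Its log2 fold change was -1.08 (SE 0.35, adjusted p = 0.0954). Pax3, a factor of melanocyte and muscle precursors, had 7.98 to 9.31 CPM in WT and 5.0 to 8.83 CPM in the KO-labelled libraries (log2 fold change -0.38, adjusted p = 0.294). Among the near absent members, Barx1, a factor of molar mesenchyme, had 7, 0 and 2 counts in WT1, WT2 and WT3 and 1, 1 and 2 in KO1, KO2 and KO3. Pax9, a tooth and palate factor, had 216, 27 and 8 counts in WT1, WT2 and WT3 and 5, 9 and 5 in KO1, KO2 and KO3.

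**Figure D3:**
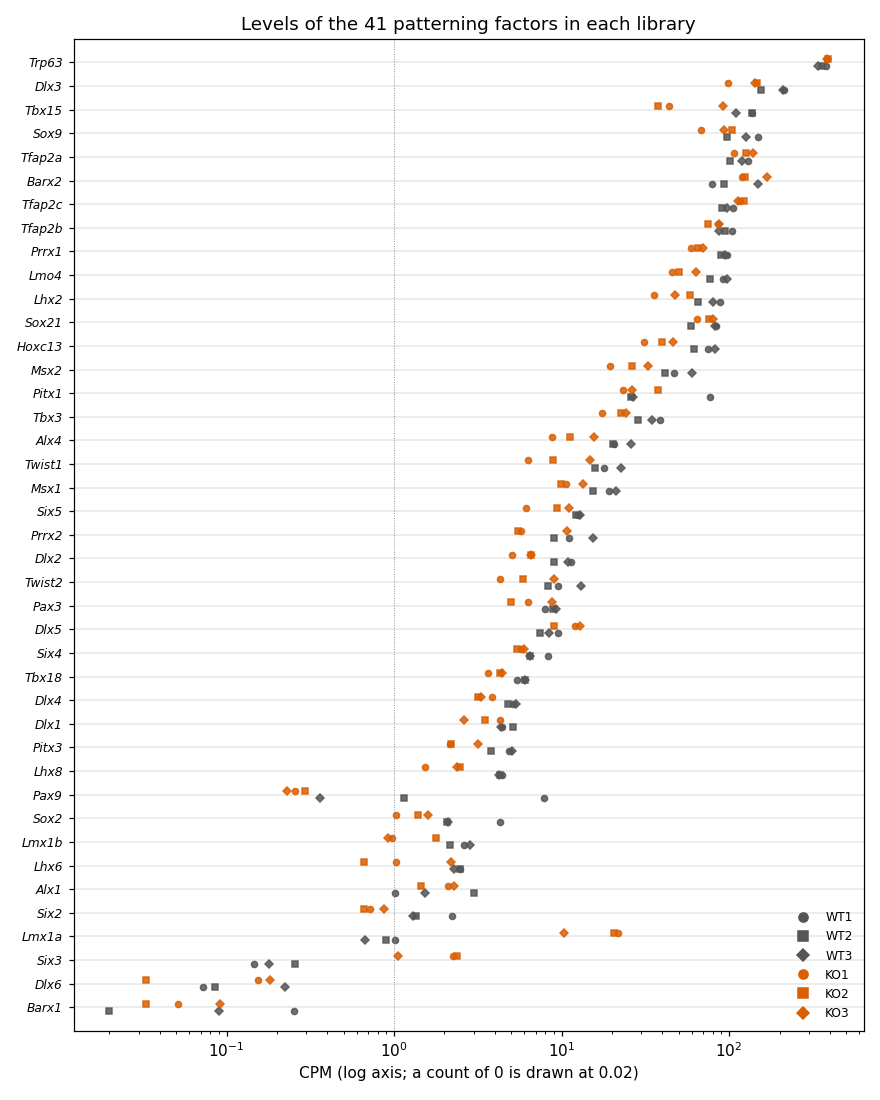
Each row is 1 of the 41 members and the horizontal log axis gives its CPM in each of the 6 libraries, with WT and KO libraries marked apart. Members range from Trp63, at 340 to 387 CPM, to Dlx6 and Barx1 below 1 CPM, and Lmx1a and Six3 have the widest gaps between genotypes.

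WT1 held the highest WT value of Pax9, Pitx1, Sox2 and Six2. Its Pax9 was 6.83 times, its Pitx1 2.04 times and its Sox2 2.03 times the highest of the other 5 libraries, while Six2 was 1.63 times the highest. Krt4 and Krt13, keratins of the mucosal epithelium inside the mouth, chosen after their values were seen, had 1987 and 2805 CPM in WT1 and at most 115.5 and 110.8 CPM in any other library. Genes at more than 2 times every other library numbered 14 in WT1 (0.0933% of those tested), beside 3 to 30 in the other libraries. Without WT1 the log2 fold change of Sox2 was -0.64 and that of Six2 -0.84. The part of these keratin levels in the values of the 4 members was not tested.

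The libraries labelled KO were not equally far from WT. On the log2 scale of CPM plus 0.5, the median of the 38 tested members against the WT mean was -0.87 in KO1, -0.47 in KO2 and -0.42 in KO3. Values more than 1 log2 unit below the WT mean were found for 10 members in KO1, 4 in KO2 and 1 in KO3. Of the 24 members whose groups did not overlap downward, KO1 was the farthest from WT in 15 and KO3 the nearest in 17. In WT, WT2 was the lowest library for 25 of the 38.

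**Figure D4:**
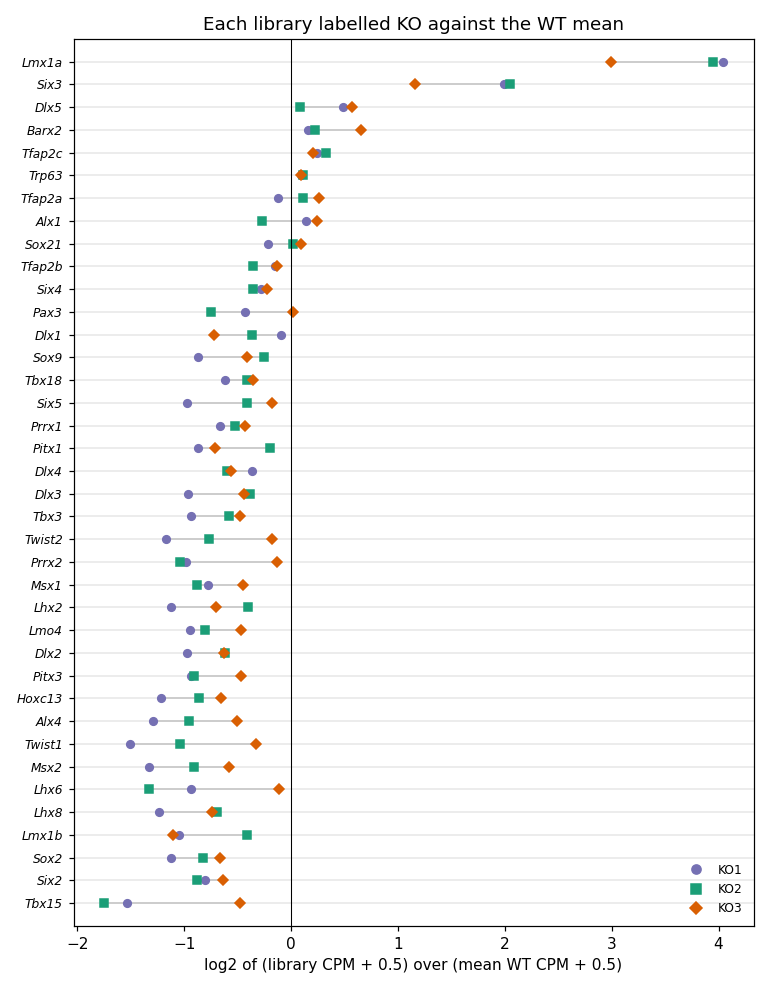
The horizontal axis gives, for each tested member, the log2 of each KO library's CPM plus 0.5 over the mean WT CPM plus 0.5. Most points lie left of 0, and KO1 is the farthest left for 15 of the 24 members in which each library labelled KO is below WT.

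Sums of hair follicle, muscle, Schwann cell and dermal papilla markers lay lower in each KO-labelled library than in any WT library, as most members did. The summed CPM of 18 of the 19 listed hair follicle markers (Krt85 was not analysed here) was 11477 to 14683 in WT and 6839 to 9499 in the KO-labelled libraries, with a median log2 fold change of -0.66. Called lower were 3 of 18 (16.7%, Krt36, Krt75 and Padi3), beside 2.09% of all tested genes. The sum of 12 dermal fibroblast markers was 7289 to 9433 CPM in WT and 3197, 4025 and 7580 CPM in KO1, KO2 and KO3, with a median of -0.60, and KO3 lay inside the WT range. Of these 12, 0 were called by edgeR's quasi-likelihood test, beside 6.47% of all tested genes in either direction. The 12 skeletal muscle markers summed to 9595 to 12734 CPM in WT and 4121, 5321 and 8088 CPM in KO1, KO2 and KO3, with a median of -1.01. Of the 11 tested, 3 (27.3%) were called lower (Tnnt3, Tnni2 and Pvalb), beside 2.09% of all tested genes. Basal keratinocyte markers summed to 11055 to 11926 CPM in WT and 11322 to 12589 CPM in the KO-labelled libraries, and 9 suprabasal markers to 21563 to 26636 CPM and 34088 to 52423 CPM. Called higher were Dst of the basal list (log2 fold change 1.37, adjusted p = 0.0343) and Ivl of the suprabasal list (1.55, adjusted p = 0.0292). Each was 1 of 9 tested (11.1%), beside 4.38% of all tested genes. The 7 Schwann cell markers summed to 635 to 671 CPM in WT and 369 to 570 CPM in the KO-labelled libraries, with a median of -0.60. The 10 dermal papilla markers summed to 108 to 134 CPM and 81.0 to 92.3 CPM. Bmp4 was called lower (-0.97, adjusted p = 0.0474), 1 of 10 tested, beside 2.09% of all tested genes. Sums overlapped for the Merkel cell list (16.3 to 22.3 CPM in WT, 14.6 to 19.5 CPM in the KO-labelled libraries), the melanocyte list (44.9 to 63.3 and 40.4 to 47.0 CPM) and the endothelial list (190 to 222 and 121 to 221 CPM). Every analysed marker of the hair, fibroblast, basal and suprabasal lists had counts in each library, and of the muscle list Tnnc2 had a count of 0 in at least 1 library. The part of these markers in the members' values was not tested.

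Set against the hair marker sum of its own library, per 1000 CPM, Hoxc13 ran from 5.22 to 6.56 in WT and from 4.32 to 4.85 in the KO-labelled libraries, without overlap. Single markers of this list differed, however. Tchh, Krt71, Krt25 and Krt27, which make up most of the sum, had means of 68.6% to 76.6% of WT, while the 7 analysed hair shaft keratins (Krt31, Krt34, Krt35, Krt36, Krt81, Krt83 and Krt86) had 51.4% to 65.2%, beside 53.5% for Hoxc13. Msx2 did not overlap either (3.49 to 4.12 against 2.83 to 3.47), while Lhx2 (5.46 to 7.70 against 5.0 to 6.35) and Lmo4 (6.50 to 8.0 against 5.46 to 6.72) overlapped, as did Dlx3 and Sox9. Against the basal keratinocyte sum, however, Dlx3 ran from 14.1 to 18.0 in WT and from 7.85 to 13.0 in the KO-labelled libraries, Tfap2c lay above WT (8.25 to 8.88 against 8.99 to 10.9), and Trp63 and Tfap2a overlapped. Relative to the hair sum, Sox21 and Barx2 were higher in each KO-labelled library than in any WT library. For Sox21 the ratios were 5.01 to 7.32 against 8.21 to 9.42, and for Barx2 6.87 to 10.1 against 13.4 to 17.7. The hair sum was itself 67.4% of WT in the KO-labelled libraries, so a gene with unchanged CPM comes out higher on this ratio. In CPM the groups overlapped for both genes, with log2 fold changes of -0.03 for Sox21 and 0.36 for Barx2. Against the fibroblast sum, Prrx1 ran from 10.1 to 13.0 in WT and from 9.19 to 18.5 in the KO-labelled libraries, and Prrx2, Twist1, Twist2, Alx4, Tbx15 and Msx1 overlapped as well. Most of this sum is Col1a1, Col1a2 and Col3a1, whose means were 55.3% to 59.5% of WT. Of the other markers, Col6a1, Col6a2 and Thy1 had 55.6% to 57.9% and Dpt 72.9%. Dcn, Lum and Pdgfra had 82.3% to 85.4%, Fbln1 108% and Fap 104%. These ratios were chosen after the values were seen and are given without a test.

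**Figure D5:**
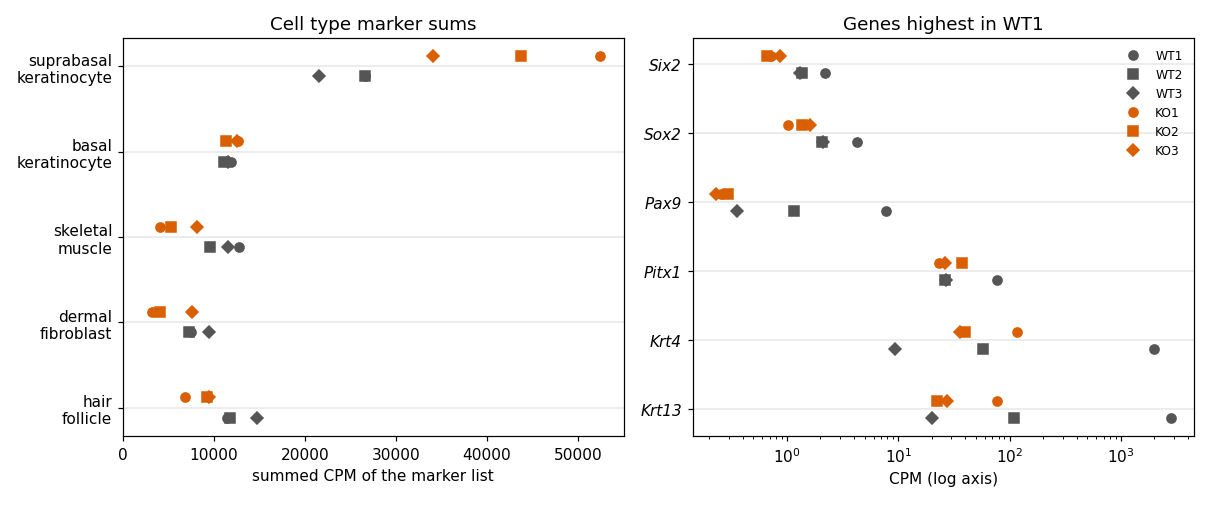
The left panel gives the summed CPM of cell type marker lists in each library, on an axis from 0, and the right panel the CPM of the genes highest in WT1 on a log axis. The hair, fibroblast and muscle sums lie lower in KO1 and KO2 than in any WT library, suprabasal sums lie higher, and Krt4 and Krt13 are above 1000 CPM in WT1 alone.

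Of 71 listed relatives and partners of the members, such as other LIM, Hox, Sox and T-box genes, 63 were counted and 35 tested. Of these, 1 was lower and 0 were higher by edgeR's quasi-likelihood test, beside 2.09% and 4.38% of all tested genes, and 15 were lower and 2 higher at an unadjusted p under 0.05, beside 16% and 13.5%, while DESeq2 and the exact test also called 0 higher. The median log2 fold change was -0.42, with 29 negative of 35. The lower gene was Tbx2, the closest paralogue of Tbx3, with 6.64, 6.50 and 6.16 CPM in WT and 2.92, 3.48 and 3.61 CPM in KO1, KO2 and KO3 (log2 fold change -0.94, adjusted p = 0.0228). This call was lost with a replicate block and without WT1, WT2, WT3, KO1 or KO2, where 0 relatives were lower.

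A promoter window of 300 bases, from 250 before to 50 after the start, was found in RefSeq for 26 of the 41 members. The letters TAATTA were found in 3 of the 26 (Msx2, Prrx1 and Tfap2a), beside 5.29% of all 32841 windows. The windows of Msx2 and Tfap2a lie inside the longer GENCODE genes, so their matches are not upstream of those genes. GGATTA, searched because GTF2IRD1 and Pitx factors are known to bind this core, was found in 0 of 26, beside 7.06% of all windows. CANNTG was found in 11 of 26 (42.3%), beside 72.3% of all windows. Both strands were searched, and TAATTA and CANNTG read the same on each. The members' windows were richer in G and C, with a median of 65.7% beside 52.7% of all windows. A match describes these letters in this window and says nothing of binding.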

How the data were processed

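RNA-Seq libraries of lip tissue from 3 WT and 3 KO mice were compared, each from its own mouse. Paired-end reads were aligned by the authors to GRCm38, using TopHat2 2.0.8 and Bowtie2 2.1.0, and counted per gene with HTSeq (versions from the submitters' processing notes), and the deposited values are raw counts without normalization. The strand setting and counting mode are not given in the sources used here. No column was unused (0) and 0 rows named no gene.

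The filter kept genes at 1 CPM or more in 3 or more libraries, which were tested in R 4.3.3 with edgeR 4.0.16: TMM factors, glmQLFit (legacy=FALSE), glmQLFTest, and Benjamini-Hochberg adjustment over all 15009 tested genes (99.8% of counts), with a threshold of 0.05. The standard error is the log2 fold change divided by the square root of F. CPM use TMM-scaled library sizes. The study used edgeR's exact test, which was an alternative here, with DESeq2 1.42.0 and limma 3.58.1 (voom), 3 other scalings, 2 filters, the older fit, a replicate block, an adjusted p under 0.1, and each library left out in turn. The steps were tested on simulated data. Positions, exon lengths and overlaps come from GENCODE M21 (GRCm38), and promoters from RefSeq (GRCm38.p6). Figures used Python 3.11.15 and matplotlib 3.10.9.

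The members and lists were chosen with earlier results of these data known. Every member is named, with full values for called members and Lhx2 and for others with an unadjusted p under 0.05 as far as needed. Other genes named are Gtf2ird1, called relatives, Ldb1, opposite-strand genes and nearest counted neighbours. Beyond this rule, cell type markers, Krt4 and Krt13 are named and were chosen after their values were seen. Some genes of this rule are not reported here.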

Additional observations from a re-analysis of the deposited data

How the results depend on the processing

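Lmx1a and Six3 were called higher in all 6 fits with a library left out and under every other setting that tested them; requiring 10 counts in every library dropped Six3, leaving 1 higher call. The number of lower members, 5 as reported, was 16 with edgeR's exact test (background 7.15%), 13 with DESeq2's Wald test (5.31%), 16 at an adjusted p under 0.1 (8.53%), 3 with library size alone (1.67%), 3 with at least 10 counts in every library (1.34%), 1 with DESeq2's size factors (1.2%) and 1 without a filter (0.761%), and 0 to 21 with each library left out. Lower relatives numbered 7 with the exact test, 4 with DESeq2, and 0 to 12 with each library left out, and higher relatives 0 to 1. With a replicate block, 4 members were lower, beside 1.45% of all genes (Lhx8, Prrx1 and Dlx2 lost, Msx2 and Alx4 gained) and 0 relatives. Deviations from the group means correlated at -0.19 for WT1 and KO1, 0.32 for WT2 and KO2 and 0.34 for WT3 and KO3. Pairs of unlike number ran from -0.52 (WT2 and KO3) to 0.43 (WT2 and KO1). Deviations within 3 libraries sum to 0, so these values cannot show whether samples of the same number share a pairing or batch. Leaving out each library, the log2 fold change of Pitx1 ran from -0.83 to 0.14 (positive without WT1), that of Alx1 from -0.24 to 0.61 (negative without WT1, WT3 or KO3), and that of Sox21 from -0.18 to 0.11 (positive without WT1, WT3 or KO1). Sox21 was also positive with DESeq2 (0.0133), DESeq2's size factors (0.0132) and no filter (0.0224). None of these values passed a threshold. With DESeq2's size factors 180 of all genes were lower and 714 higher, against 314 and 657. Across settings the median of all genes ran from -0.08 to 0.03. The causes were not tested. Counts of a few reads limit Six3, Dlx6 and Barx1.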
